A study of Rattus norvegicus with 241 samples.

Results

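Basal mammary cells of vehicle-treated ACI rats were followed through the 2 weeks after the last dose. The samples are the 9 bulk RNA-seq libraries that the labels place in the young ACI experiment as basal cells of control animals, 3 rats each at day 0, day 7 and day 14, among 241 samples in the series, of which 202 are bulk libraries. The main comparison is day 14 against day 0, and day 7 is the step between. ACI is an inbred rat strain in which estrogen induces mammary tumors. The rats were virgin females, dosed from about 35 days of age by oral gavage 2 times a day for 10 days with a vehicle of carboxymethylcellulose, sodium lauryl sulfate and povidone, with no inhibitor of the TGF-beta receptor (TGFBRi). Day 0, day 7 and day 14 count from the last dose, so the rats were about 45, 52 and 59 days old. All 9 libraries came from dissociated mammary glands sorted for CD24+ CD29high cells after CD31+ and CD45+ cells were gated out. Different rats were used at each day. Age and days since the last gavage moved together and cannot be told apart, and the estrous stage and the time of day of collection were not given in the sources used here. The rat numbered 3 of day 7 is called control by its title and treatment label but treated by its description. It was taken as a vehicle rat.

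Basal cells form the outer layer of mammary ducts and alveoli, next to the basement membrane. Most are myoepithelial: they carry keratins 5 and 14, the transcription factor p63 and a smooth muscle contractile apparatus that squeezes milk toward the nipple in response to oxytocin. The layer also holds stem and progenitor cells and sends WNT, matrix and growth factor signals to the luminal cells inside it. Milk proteins are made by luminal cells. The ages studied span puberty, when ducts elongate and ovarian cycles begin.

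The libraries held 12382292 to 23171710 reads assigned to genes, and 12441 to 14737 genes were above 0 in each. The levels below are normalized counts, that is reads per gene divided by a size factor of the library, and they are given in the order of rats 1, 2 and 3 of a day. A pair of libraries stood apart from the other 7: rat 3 of day 7 and rat 1 of day 14. On the first principal component of log2 levels, which held 62.7% of the variance over 9570 genes, they lay at 107.6 and 101.3, and the others lay between -53.0 and -1.52. Summed normalized counts of the cytosolic ribosomal protein genes were 387689, 352558 and 272169 at day 0, then 398162, 347260.0 and 1302160.0 at day 7, then 2402400.0, 462662 and 520428 at day 14, so the same pair was highest. THBS1, which encodes the matrix glycoprotein thrombospondin 1, was 6093 and 14619 in this pair and 85716 to 346974 in the others. The labels gave no batch or date that sets them apart, but rat 3 of day 7 is the rat whose description says treated. Results are therefore given over 9 libraries and over the 7 that remain without this pair, an alternative chosen after seeing the data.

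**Figure D1:**
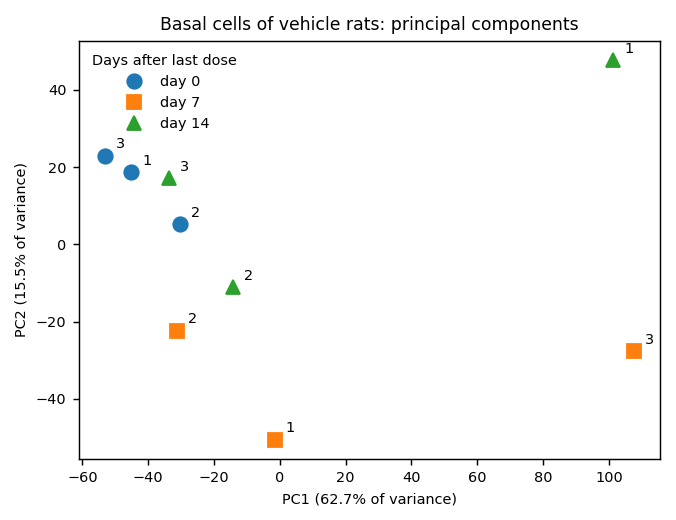
Position of the 9 vehicle basal libraries on the first (horizontal, 62.7% of the variance) and second (vertical, 15.5%) principal components of log2(normalized count + 1), in log2 units, with colors for day and numbers for rats. Rat 3 of day 7 and rat 1 of day 14 lie at 107.6 and 101.3 on the first component, away from the other 7 libraries.

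The basal markers were above 0 in every library. Their sums in luminal libraries were not set beside them here, so how far the basal label held was not tested. The 10 basal markers (KRT5, KRT14, KRT17, TP63, ACTA2, MYH11, CNN1, TAGLN, OXTR and MYLK) summed to 263831 to 328523 normalized counts at day 0, 177799 to 301946 at day 7 and 374870.0 to 667037 at day 14, and none was at 0 throughout. The 12 luminal markers summed to 33672 to 44059, 38986 to 55844 and 56694 to 69306, so every day 14 library lay above every day 0 library. Endothelial markers (10 genes) summed to 1948 to 9987 at day 0, 298 to 1795 at day 7 and 708 to 1732 at day 14. Schwann cell markers (5 genes) summed to 6576 to 11661, 2878 to 5206 and 3156 to 6052. Both were higher in every day 0 library than in any day 14 library for at least 3 of their genes (0 higher and 4 lower of 10 endothelial, 0 higher and 3 lower of 5 Schwann). Over all genes 9.53% were higher and 11% lower in this way. Leukocyte markers summed to 1144 to 1983, 1117 to 3086 and 1984 to 5433, with PTPRC at 0.815 to 111 normalized counts at day 0. Fibroblast markers summed to 54710.3 to 128306, 17864 to 82605 and 18526 to 91592 at the 3 days, pericyte markers to 1690.5 to 5747, 235 to 1720.1 and 520.0 to 1369 (0 higher and 5 lower of 7), adipocyte markers to 1073 to 5948, 387 to 856 and 743 to 3573, and red blood cell markers to no more than 39.2. In bulk samples, fewer cells of a type and less RNA per cell cannot be told apart.

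At day 14 the basal libraries of vehicle rats held more RNA of milk proteins, the connexin GJB2, WNT10A and transferrin than at day 0, and less of ZBTB16, PEX11A, TRIM72, immediate early genes and clock genes. The summed luminal markers and the summed basal markers were also higher at day 14 (above). CSN1S1, LALBA, GJB2 and TF were more abundant in luminal than in basal single cells (below). The part of luminal RNA in these differences was not tested. Over all 9 libraries limma and edgeR called none of these genes. DESeq2 called WNT10A, GJB2, TF, ZBTB16, PEX11A, TRIM72 and 9 milk genes. It also called KLF2 and BTG2 among the immediate early genes and NR1D1 and DBP among the clock genes. Of 14109 genes tested by limma on log2(normalized count + 1), 0 were called for day 14 against day 0 at an adjusted p (Benjamini-Hochberg) no larger than 0.05 (0% of genes), and 1370 had an unadjusted p below 0.05. By edgeR's quasi-likelihood test on the recovered reads 0 were called and 1788 had an unadjusted p below 0.05, and DESeq2 called 244 (1.73%), 73 higher (0.517%) and 171 lower (1.21%). Without the pair of libraries that stood apart, limma called 167 of 13958 genes (1.2%), 71 higher (0.509%) and 96 lower (0.688%), edgeR called 195 (1.4%), of which 155 were shared with limma, and DESeq2 called 862 (6.18%). Of the 167 genes, 163 had the same sign over 9 libraries and 115 had day 0 and day 14 values that did not overlap over 9 libraries. The 7 libraries are among the 9, so these counts are no independent support for the calls. In all, 1345 genes (9.53%) were higher and 1558 (11%) lower in every day 14 library than in any day 0 library. The verbs rose and fell and the word called are used below of genes called by limma over the 7 libraries, unless another tool or set is named, and log2 changes with a standard error are over 9. The 7 libraries, chosen after seeing the data, hold rats 1, 2 and 3 of day 0 but only rats 1 and 2 of day 7 and rats 2 and 3 of day 14. In the limma fit the log2 difference between day 14 and day 0 does not draw on the day 7 rats. Over the 7 libraries it is therefore the one without rat 1 of day 14. The p-values set each difference against the spread between these rats, in which the day 7 rats count too. Over the 7 libraries that spread was taken without the 2 libraries that stood apart, so these p-values may be too small.

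WNT10A, GJB2, TF and ANXA8 were among the genes with the strongest evidence in the higher direction over 9 libraries, chosen by unadjusted p among abundant genes whose days did not overlap. WNT10A, which encodes a secreted WNT ligand, was 109, 216 and 75.1 at day 0, then 292, 188 and 283 at day 7, then 647, 1024 and 653 at day 14 (in normalized counts). Every day 14 value lay above every value of day 0 and day 7, and the ranges of day 0 and day 7 overlapped. Its log2 change at day 14 was 2.63 ± 0.444 (SE, n = 3 rats per day; limma adjusted p = 0.254), and it rose over the 7 libraries (log2 change 2.75, adjusted p = 0.0122). GJB2, the gap junction protein connexin 26, was 39.4, 52.2 and 84.3 at day 0, then 52.9, 56.99 and 46.8 at day 7, then 246, 258 and 369 at day 14. Here day 7 stayed within the day 0 range, apart from day 14. The log2 change was 2.34 ± 0.425 (adjusted p = 0.254), and over the 7 libraries GJB2 rose (log2 change 2.45, adjusted p = 0.0249). ANXA8, an annexin that binds membranes in the presence of calcium, was 37.7, 109 and 32.3 at day 0, then 472, 297 and 654 at day 7, then 348, 301 and 279 at day 14 (log2 change 2.56 ± 0.503, adjusted p = 0.266). Unlike GJB2, ANXA8 was already at day 14 levels by day 7, and it rose over the 7 libraries (log2 change 2.48, adjusted p = 0.0333).

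TF encodes transferrin, the iron carrier of plasma that is also secreted in milk. It was 1239, 1487 and 2779 at day 0, then 324, 738 and 474 at day 7, then 8776, 7266 and 9868 at day 14 (in normalized counts), so that day 7 lay below day 0 and day 14 lay above both, with no overlap. The log2 change from day 0 to day 14 was 2.31 ± 0.419 (limma adjusted p = 0.254), and over the 7 libraries TF rose (log2 change 2.30, adjusted p = 0.0185). Between day 7 and day 14 it was the 1 gene of 14109 called by limma over all 9 libraries (0.00709% of genes; log2 change 4.14, adjusted p = 0.016). The call was lost without rat 2 of day 0, rat 1 or 3 of day 7, or rat 2 or 3 of day 14, and without a variance trend and robust weights. The luminal cells sorted from the same rats held 71710.4, 84078 and 91337 at day 0, then 16583, 42936 and 33858 at day 7, then 210002, 260036 and 163399 at day 14. Day 7 was lowest and day 14 highest there too, and each luminal value was above every basal value.

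In the lower direction the 5 genes chosen in this way were PEX11A, TRIM72, ZBTB16, UGT8 and RGS3. ZBTB16, a zinc finger repressor known as PLZF that glucocorticoid and progesterone induce in several tissues, was 372, 174 and 521 at day 0, then 11.01, 10.5 and 0 at day 7, then 1.15, 4.95 and 7.90 at day 14 (in normalized counts). It was near 0 at both later days, and the log2 change at day 14 was -6.06 ± 1.01 (limma adjusted p = 0.254), with a fall over the 7 libraries (log2 change -5.48, adjusted p = 0.00636). PEX11A, a protein of peroxisome division, was 1611, 1642 and 2384 at day 0, then 196, 326 and 279 at day 7, then 362, 396 and 356 at day 14. Day 7 was already at or below the day 14 range, and the log2 change at day 14 was -2.31 ± 0.339 (adjusted p = 0.226; over 7 libraries it fell, log2 change -2.30, adjusted p = 0.00831). TRIM72, a membrane repair protein best known from muscle, was 267, 296 and 240.3 at day 0, then 97.7, 141 and 41.6 at day 7, then 27.7, 23.1 and 7.18 at day 14, with day 7 between the other days. Its log2 change was -3.91 ± 0.604 (adjusted p = 0.254), and it fell over the 7 libraries (log2 change -4.25, adjusted p = 0.00636).

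RGS3, which speeds the shutdown of G protein signals, was 673, 599.9 and 613 at day 0, then 295, 298 and 286 at day 7, then 146, 269 and 154 at day 14 (in normalized counts). The days did not overlap and day 7 lay between (log2 change -1.78 ± 0.345, limma adjusted p = 0.266), and it fell over the 7 libraries (log2 change -1.62, adjusted p = 0.0228). UGT8, the enzyme that makes the myelin lipid galactosylceramide, was 193, 90.5 and 33.5 at day 0, then 26.4, 33.3 and 13.5 at day 7, then 4.61, 1.65 and 7.90 at day 14, with a log2 change of -4.06 ± 0.778 (adjusted p = 0.266) and a fall over the 7 libraries (log2 change -4.13, adjusted p = 0.0333). The Schwann cell markers, given above, were also lower at day 14 than at day 0 in their sum. The part of Schwann cells in the fall of UGT8 was not tested. Skeletal muscle markers, to set beside TRIM72, summed to 4778 to 8394 at day 0, 139.5 to 1646 at day 7 and 1984 to 10933 at day 14. These sums came mostly from ACTA1 and overlapped between day 0 and day 14. Over the 6 markers tested the median log2 difference at day 14 was -1.12 (-1.36 over 7 libraries). Of them 0 were higher and 2 lower without overlap (CKM and TNNT3), beside 9.53% and 11% over all genes. The part of muscle cells in the fall of TRIM72 was not tested.

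In single cells of other vehicle ACI rats at day 0 (3 rats; 1984, 2253 and 1253 basal and 877, 1011 and 1103 luminal cells, libraries sharing 0 to 2 cell barcodes), mean CPM of UMI counts (± SD over rats) were as follows. WNT10A was 7.98 ± 3.35 in basal and 0 ± 0 in luminal cells, and PEX11A was 82.6 ± 5.19 in basal and 38.4 ± 12.1 in luminal cells. TF was 33.04 ± 9.12 in basal and 1574 ± 918 in luminal cells, and GJB2 was 0.107 ± 0.115 in basal and 35.4 ± 13.8 in luminal cells. UGT8 was 0.0153 ± 0.0265 in basal and 0.0612 ± 0.0571 in luminal cells. ZBTB16 was 15.8 ± 6.26 in basal and 17.5 ± 2.08 in luminal cells. ANXA8 was 1.52 ± 0.474 in basal and 36.99 ± 12.2 in luminal cells. By these means WNT10A and PEX11A were higher in basal than in luminal single cells, and TF, GJB2 and ANXA8 were higher in luminal cells. No test was made on these cells. Doublets were gated by scatter in the sort, no doublet caller was run on the deposited cells, and free RNA was not estimated. The basal keratin KRT14 was 581 ± 28.2 in basal and 0.687 ± 0.532 in luminal cells. The part of free RNA and doublets in the low values of luminal genes in basal single cells was not tested.

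**Figure D2:**
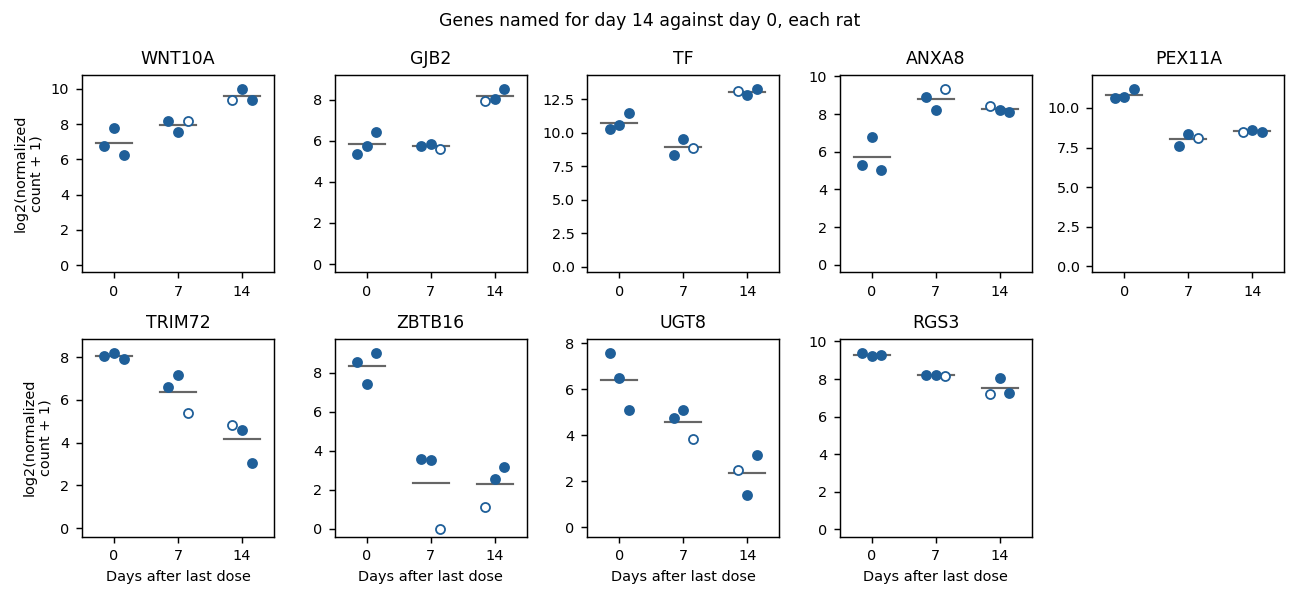
Levels of 9 named genes as log2(normalized count + 1) on the vertical axis, for each rat at day 0, day 7 and day 14 on the horizontal axis. Bars are means of 3 rats and open circles are the 2 libraries that stood apart. In each panel the day 0 and day 14 points do not overlap, with WNT10A, GJB2, TF and ANXA8 higher and the other 5 lower at day 14.

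The same choice applied to the 7 libraries, by size of change, added the following genes. IL1RL1, the receptor for interleukin 33, was 72.9, 161 and 39.3 at day 0, then 211, 194 and 409 at day 7, then 226, 772 and 681 at day 14 (in normalized counts) and rose (log2 change 3.21, adjusted p = 0.0122). LIF, a cytokine of the interleukin 6 family, rose over the 7 libraries (log2 change 2.75, adjusted p = 0.0187) but was 29.98 in rat 1 of day 14, one of the pair that stood apart, against 375 and 289 in the other rats of that day. FBN2, a fibrillin of elastic microfibrils, CARD10, an adaptor of NF-kappa B signaling, and ALDH1A3, an enzyme of retinoic acid synthesis, showed the same split. Their values in rat 1 of day 14 were 80.7, 807 and 158, within or below the day 0 ranges, and over the 7 libraries their log2 changes were 2.27, 2.16 and 2.12 (limma adjusted p = 0.0122 for each). Among the lower genes, GRIA2, a subunit of AMPA glutamate receptors, was 54, 79.1 and 155 at day 0, then 18.4, 46.5 and 4.16 at day 7, then 31.1, 4.13 and 0.718 at day 14 and fell (log2 change -4.89, adjusted p = 0.0145). CDH19, a cadherin of Schwann cells, was 573, 822 and 1166 at day 0, then 210.0, 267 and 40.6 at day 7, then 43.8, 44.6 and 241 at day 14 and fell (log2 change -2.96, adjusted p = 0.035). PYGM, the muscle glycogen phosphorylase, ADAMTS15, a secreted metalloprotease, ENPP4, an ectonucleotide hydrolase, SULT1A1, a phenol sulfotransferase, and TMEM252 fell by 2.66 to 3.45 on the log2 scale, with adjusted p between 0.0122 and 0.0384, and had no overlap between day 0 and day 14 over 9 libraries.

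For day 7 against day 0, limma called 0 of 14109 genes over 9 libraries (0%). The unadjusted p was below 0.05 for 1770. With edgeR 0 were called and 1870 had such a p, and DESeq2 called 473 (3.35%). Without the pair that stood apart limma called 309 (2.21%), 72 higher (0.516%) and 237 lower (1.7%), edgeR 261 (1.87%) and DESeq2 1001 (7.17%). This comparison shares its day 0 rats with that of day 14, so changes of the same sign at both days are no independent support for each other.

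The milk protein and milk fat list (21 genes) had a median log2 difference of 1.45 at day 14, beside -0.17 over all genes, and 1.18 over the 7 libraries, beside -0.07. Over 9 libraries 10 of the 21 were higher and 1 lower without overlap, beside 9.53% higher and 11% lower over all genes. Over the 7 libraries CSN1S1, CSN3, LALBA and OLAH rose and none fell, and DESeq2 over 9 libraries called 9 higher and 1 lower. Of all genes 0.509% were called higher and 0.688% lower over the 7, and 0.517% and 1.21% by DESeq2 over 9. At day 7 the median was -0.22. Promoter sequences of the kappa, beta and alpha-S1 casein genes, proteins that make up the curd of milk, are shown as 250 bases before the start of the gene, from RefSeq on the GRCr8 build (the deposited counts were made on rn6). CSN1S1 lies at chr14:20638850-20639099 (minus strand), CSN2 at chr14:20601574-20601823 (plus strand) and CSN3 at chr14:20439831-20440080 (minus strand). Capitals mark TTCNNNGAA, the palindrome that STAT5, the transcription factor downstream of prolactin, binds.
CSN1S1: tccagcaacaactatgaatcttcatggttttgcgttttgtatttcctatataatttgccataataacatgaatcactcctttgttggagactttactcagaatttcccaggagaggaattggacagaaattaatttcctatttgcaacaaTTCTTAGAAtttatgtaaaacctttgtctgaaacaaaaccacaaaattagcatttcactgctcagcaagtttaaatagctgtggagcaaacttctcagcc
CSN2: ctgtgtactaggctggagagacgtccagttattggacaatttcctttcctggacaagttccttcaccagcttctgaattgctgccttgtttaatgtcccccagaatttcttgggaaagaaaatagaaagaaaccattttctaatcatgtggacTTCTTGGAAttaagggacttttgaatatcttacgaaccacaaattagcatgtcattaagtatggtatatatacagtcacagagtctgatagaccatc
CSN3: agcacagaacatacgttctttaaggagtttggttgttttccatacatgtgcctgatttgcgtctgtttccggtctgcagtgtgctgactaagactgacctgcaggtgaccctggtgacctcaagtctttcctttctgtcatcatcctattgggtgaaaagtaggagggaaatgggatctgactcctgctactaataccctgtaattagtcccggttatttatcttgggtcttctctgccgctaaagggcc

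The motif, searched on the given strand since it reads alike on both, began 100 bases before the start in CSN1S1 and 97 in CSN2 and did not occur in this window of CSN3. It was present in 5 of the 18 milk list genes with a promoter sequence (CSN1S1, CSN2, CSN1S2A, CSN1S2B and GLYCAM1) and in 8.19% of all 27457 genes with one, counted in the same way.

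CSN1S1, the alpha-S1 casein gene, was 906, 909.6 and 1462 at day 0, then 903, 1432 and 4669.7 at day 7, then 21706, 3140.2 and 8167 at day 14 (in normalized counts). Every day 14 value lay above every day 0 value, and CSN1S1 rose over the 7 libraries (log2 change 2.25, adjusted p = 0.0184). CSN3, kappa-casein, was 1839, 787 and 1827 at day 0, then 377, 1076 and 4123 at day 7, then 73714, 6789.9 and 17665 at day 14 and rose (log2 change 2.98, adjusted p = 0.0408). LALBA, the alpha-lactalbumin subunit of lactose synthase, was 1408, 932 and 1136 at day 0, then 328, 939 and 1861 at day 7, then 37138, 3761 and 6367 at day 14 and rose (log2 change 2.10, adjusted p = 0.0268). For each of the 3 genes rat 1 of day 14 was the highest, and without it day 14 still lay above day 0. OLAH, the thioesterase that ends medium-chain fatty acid synthesis in milk fat, was 617, 571 and 969 at day 0, then 434, 929 and 1389 at day 7, then 4908, 2071 and 2387 at day 14 and rose (log2 change 1.67, adjusted p = 0.0332). CSN2, beta-casein, was 0, 5.71 and 12.7 at day 0, then 239, 15.8 and 1098 at day 7, then 28653, 168 and 3572 at day 14, with a wide spread between the rats of day 14 and an adjusted p of 0.0641 by limma over 7 libraries. WAP, the whey acidic protein of rodent milk, was 19.7, 7.34 and 35.8 at day 0, then 11.01, 2.63 and 72.8 at day 7, then 3337, 71.8 and 413 at day 14 (adjusted p = 0.1 over 7 libraries). CD36, a fatty acid transporter also abundant in endothelial cells and adipocytes, went the other way with 615, 275 and 1525 at day 0, then 85.2, 166 and 47.8 at day 7, then 101.5, 126 and 113 at day 14 (adjusted p = 0.0638 over 7 libraries). By edgeR and DESeq2 over the 7, CSN2 and WAP were called higher and CD36 was called lower.

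The luminal cells of the same rats held more of these transcripts. There, CSN2 was 721, 799 and 1146 at day 0, then 25996, 1965 and 120567 at day 7, then 237422, 6218 and 78510.1 at day 14 (in normalized counts), and the rats that were highest at day 7 and at day 14 in luminal cells were highest in basal cells as well. CSN1S1 was 69436, 77708 and 101806 at day 0, then 96654, 108363 and 404679 at day 7, then 226764, 103026 and 158000.0 at day 14 in luminal cells. In the single cells of day 0, CSN1S1 had a mean of 7.80 ± 2.83 in basal and 6304 ± 2749.8 in luminal cells, and LALBA 9.35 ± 8.29 in basal and 4125 ± 1491 in luminal cells (CPM of UMI counts). The sum of the 12 luminal markers in the basal libraries was higher at day 14 and came mostly from KRT8. The sum of the 10 basal markers was higher too (above). Median log2 differences were 0.50 for the luminal and 0.49 for the basal markers. Of the 10 basal markers, 4 were higher without overlap and 0 lower. Of the 12 luminal markers, 4 were higher without overlap (KRT8, CLDN3, CLDN4 and AREG) and 0 lower, beside 9.53% higher and 11% lower over all genes. Log2 changes of the others are given with those over the 7 libraries in brackets. They were 1.48 (1.18) for ELF5, 0.59 (0.39) for KRT19, 0.57 (0.28) for KRT18 and 0.16 (1.31) for KIT. For ESR1 the change was -1.44 (-0.23), for FOXA1 -1.11 (-0.20), for PRLR -0.48 (-0.79) and for PGR -0.37 (0.16). KRT8 was 33072, 29594 and 21712 on day 0 versus 39667, 36978 and 35422 on day 14. CLDN3, a tight junction claudin, was 399, 325 and 397 on day 0 versus 1567, 858 and 895 on day 14 and rose over the 7 libraries (log2 change 1.23, adjusted p = 0.0475). The defining luminal receptor genes ESR1 and PGR were 2.57, 18.7 and 40.4 on day 0 versus 0, 7.43 and 16.5 on day 14 and 169, 116 and 131 on day 0 versus 49.6, 159 and 147 on day 14, in overlapping ranges. The part of luminal cells or their free RNA in the milk protein result was not tested.

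Immediate early genes, which are transcribed within minutes of a stimulus and also respond to tissue dissociation, were lower. The median over 22 genes was -0.84 at day 14 and -0.88 at day 7, and 16 were lower and 0 higher at day 14 without overlap, beside 11% lower and 9.53% higher over all genes. Over the 7 libraries EGR2, KLF2, KLF4 and BTG2 fell at day 14, where 0.688% of all genes were called lower, and 7 fell at day 7, where 1.7% were. BTG2, an antiproliferative cofactor, was 29647, 30233 and 35651 at day 0, then 10763, 14057 and 12009.5 at day 7, then 19903, 15320.5 and 16484 at day 14 (in normalized counts) and fell (log2 change -0.998, adjusted p = 0.0394). EGR2, a zinc finger factor, was 6219, 7702 and 6501 at day 0, then 1727, 3163 and 1131 at day 7, then 1374, 3253 and 2856 at day 14 and fell (log2 change -1.15, adjusted p = 0.0487). For both, every day 0 value was above every later value. KLF2, a Krüppel-like factor that is also high in endothelium, was 6249, 4832 and 4506 at day 0, then 2258, 4336 and 4596 at day 7, then 1867, 1954 and 1619 at day 14 and fell at day 14 (log2 change -1.53, adjusted p = 0.0228), and KLF4 was 4851, 2643 and 4345 at day 0, then 2215, 2979 and 3517 at day 7, then 2279, 1048 and 1649 at day 14 and fell (log2 change -1.54, adjusted p = 0.0292). FOS, the AP-1 subunit, was 147340.0, 130568 and 144507 at day 0, then 51591, 79035 and 122363 at day 7, then 87775, 101097 and 71348 at day 14, lower without overlap at both later days, and over the 7 libraries it fell at day 7 (log2 change -1.14, adjusted p = 0.0281) but not by the test at day 14 (adjusted p = 0.15). In luminal cells of the same rats the median of the list was -1.21. The time from death to lysis was not given in the sources used here, and its part was not tested.

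Circadian clock genes gave a median of -0.95 over 15 genes at day 14 and -1.04 at day 7, and 8 were lower and 0 higher at day 14 without overlap, beside 11% lower and 9.53% higher over all genes. DBP, an output factor of the clock, was 496, 924 and 740.5 at day 0, then 214, 143 and 433 at day 7, then 299.8, 119.7 and 160.2 at day 14 (in normalized counts) and fell at day 14 (log2 change -2.32, adjusted p = 0.0122) and at day 7 (log2 change -1.99, adjusted p = 0.0126). CRY2, a repressor in the clock's feedback loop, was 1711, 1597 and 2628 at day 0, then 729.9, 1338 and 236 at day 7, then 292, 613 and 863 at day 14 and fell at day 14 (log2 change -1.41, adjusted p = 0.0473). CIART, another repressor, was 1360.3, 2063 and 1081 at day 0, then 651, 1163 and 1622 at day 7, then 1087, 423 and 387 at day 14, where rat 1 of day 14 overlapped day 0, and fell over the 7 libraries (log2 change -1.84, adjusted p = 0.0187). PER2 was 3741, 2384 and 3417 at day 0, then 1419, 2297 and 958 at day 7, then 877, 785 and 2018 at day 14 and NR1D1, the nuclear receptor REV-ERB alpha, was 3404, 4983 and 3105 at day 0, then 2646, 3099 and 2093 at day 7, then 1363, 1581 and 2201 at day 14, both lower without overlap with adjusted p above the threshold over 7 libraries (adjusted p = 0.097 and 0.0739). ARNTL, the activator known as BMAL1 that NR1D1 represses, was 302, 330.1 and 249.5 at day 0, then 582, 772 and 444 at day 7, then 249, 654 and 557 at day 14 and rose at day 7 (log2 change 1.197, adjusted p = 0.0375). The NR1D1 promoter is shown, at chr10:84229455-84229704 on the minus strand of GRCr8 (RefSeq), with the E-box CACGTG that the ARNTL and CLOCK pair binds in capitals.
NR1D1: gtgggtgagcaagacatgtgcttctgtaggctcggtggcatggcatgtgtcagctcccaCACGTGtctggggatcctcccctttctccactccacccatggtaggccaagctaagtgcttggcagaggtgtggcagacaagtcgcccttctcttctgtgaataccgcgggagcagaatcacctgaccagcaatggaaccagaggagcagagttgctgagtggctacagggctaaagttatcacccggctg

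The E-box, which reads alike on both strands, began 191 bases before the start. It was present in 4 of the 13 clock genes with a promoter sequence (NR1D1, TEF, BHLHE40 and CIART) and in 6.18% of all 27457 genes with one. In luminal cells of the same rats the clock list had a median of -1.13 at day 14. Since the hour of collection was not given, the hour and the day cannot be told apart for these genes.

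Among 13 hormone receptors and hormone targets the median was -0.37 over 9 libraries and -0.22 over 7. Over 9 libraries 1 was higher and 3 lower without overlap, beside 9.53% higher and 11% lower over all genes. TSC22D3, which encodes the anti-inflammatory protein GILZ, was 2110.3, 2469 and 3055 at day 0, then 505, 658 and 888 at day 7, then 1239, 806 and 751 at day 14 (in normalized counts) and fell at day 14 (log2 change -1.69, adjusted p = 0.0122) and at day 7 (log2 change -2.12, adjusted p = 0.0019). FKBP5, a cochaperone of the glucocorticoid receptor, was 427, 357 and 648 at day 0, then 249.7, 238 and 164 at day 7, then 31.1, 156 and 91.2 at day 14 and fell at day 14 (log2 change -1.94, adjusted p = 0.0228). AREG, the amphiregulin ligand through which estrogen drives duct growth, was 355, 465 and 224 at day 0, then 4129, 1469 and 4523 at day 7, then 1614, 1724 and 1007 at day 14 and rose at day 14 (log2 change 1.98, adjusted p = 0.047) and at day 7 (log2 change 2.88, adjusted p = 0.00693). AREG is itself a luminal marker, at a mean of 12.1 ± 7.004 in basal and 218 ± 139 in luminal cells in the single cells (CPM of UMI counts). EREG, a ligand of the same EGF family, was 27.4, 37.5 and 19.6 at day 0, then 394, 172 and 508 at day 7, then 164, 100.7 and 111 at day 14 and rose at day 7 (log2 change 3.21, adjusted p = 0.00736). Over the 12 EGF family genes the median was 0.05 over 9 libraries and 0.52 over 7, by construction the same as without rat 1 of day 14 alone.

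Contractile genes were lowest at day 7. Over 20 genes the median difference from day 0 was -1.16 at day 7, where 0 were higher and 15 lower without overlap, beside 10.7% higher and 13.4% lower over all genes. At day 14 the median was 0.35, and 4 were higher and 2 lower, beside 9.53% and 11% over all genes. Pericyte and vascular smooth muscle markers (7 genes) had medians of -2.17 at day 7 and -1.70 at day 14. Their part in the contractile values was not tested. Over the 7 libraries MYH11, CNN1, MYL9, LMOD1, TPM1, TPM2 and PCP4 fell at day 7, where 1.7% of all genes were called lower. At day 14 over the 7 libraries 0 of the 20 contractile genes were called by limma or edgeR. DESeq2 called 1, where it called 6.18% of all genes. MYH11, the smooth muscle myosin heavy chain, was 76224, 63962 and 89488 at day 0, then 7392, 28719.7 and 2058 at day 7, then 18649, 43295 and 71369 at day 14 (in normalized counts) and fell at day 7 (log2 change -2.38, adjusted p = 0.0338). CNN1, calponin, was 41151, 46514 and 35902 at day 0, then 7886, 24591 and 20745 at day 7, then 88092, 51519 and 51467 at day 14 and fell at day 7 (log2 change -1.56, adjusted p = 0.0471). MYL9, a myosin light chain, was 41713, 45981 and 40443 at day 0, then 9546, 19476 and 37689 at day 7, then 204798, 46699 and 46595 at day 14. It fell at day 7 (log2 change -1.65, adjusted p = 0.00937) and rose from day 7 to day 14 over the 7 libraries (log2 change 1.77, limma adjusted p = 0.0336). Rat 1 of day 14 had the highest MYL9, TPM2 (261326, against 57338 and 50356 in rats 2 and 3) and ACTA2 (17294, 6299 and 12710.2), and the day 14 median over the 7 libraries was 0.12. KRT15, a basal keratin, was 44366, 34487 and 39417 at day 0, then 133188, 62445 and 120151 at day 7, then 99649.7, 63525 and 49807 at day 14 and rose at day 7 (log2 change 1.22, adjusted p = 0.0471), and KRT5 was 21987, 22126 and 16839 at day 0, then 27044, 22902 and 29449 at day 7, then 22028, 32380.0 and 22377 at day 14. Over the 16 basal keratins and transcription factors the medians were 0.02 at day 7 and -0.19 at day 14 (0.05 over 7 libraries). The 2 that fell at day 14 over the 7 libraries were EGR2 and ZEB2, a repressor of epithelial genes, beside 0.688% of all genes.

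The G2/M list (47 genes) had a median of 1.27 at day 7, with 30 higher and 0 lower without overlap, beside 10.7% higher and 13.4% lower over all genes. At day 14 its median was -0.10 (-0.33 over 7 libraries). The 1 gene of the list that limma called at day 14 over the 7 was RANGAP1, an activator of the RAN GTPase, which was higher. Over the 7 libraries TOP2A, CDK1, BIRC5, TPX2, TACC3, CDC20, ECT2 and HMMR rose at day 7 and none fell, where 0.516% of all genes were called higher and 1.7% lower. TOP2A, the topoisomerase of dividing cells, was 529.7, 435 and 401 at day 0, then 2249, 1083 and 1801 at day 7, then 279, 544 and 301 at day 14 (in normalized counts) and rose at day 7 (log2 change 1.79, adjusted p = 0.0212). CDC20, an activator of the anaphase-promoting complex, was 204, 431 and 180.2 at day 0, then 1679, 857 and 2539 at day 7, then 447, 505 and 272 at day 14 and rose at day 7 (log2 change 2.25, adjusted p = 0.0181). For both genes day 14 was back within or near the day 0 range. MKI67, the proliferation antigen Ki-67, was 608, 556 and 872 at day 0, then 1513, 1359.8 and 1290.4 at day 7, then 325, 255 and 480.5 at day 14. It did not pass the test at day 7 (adjusted p = 0.0773 over 7 libraries), and it fell from day 7 to day 14 (log2 change -2.03, adjusted p = 0.0336 over 7 libraries), as did TPX2 and HMMR. The S phase list (37 genes) had medians of 0.80 at day 7 and -0.57 at day 14 over 9 libraries. The day 14 median was -0.30 over the 7, by construction the same as without rat 1 of day 14 alone. ATAD2 was its 1 gene called at day 14 over the 7 libraries, lower. The G1 regulators (17 genes) had a median of -0.06 at day 14 (-0.15 over 7 libraries). Over the 7 libraries limma and edgeR made 0 calls among them at that day and DESeq2 made 3, beside 6.18% of all genes. CDKN1C, a CDK inhibitor, and MYC fell at day 7.

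**Figure D3:**
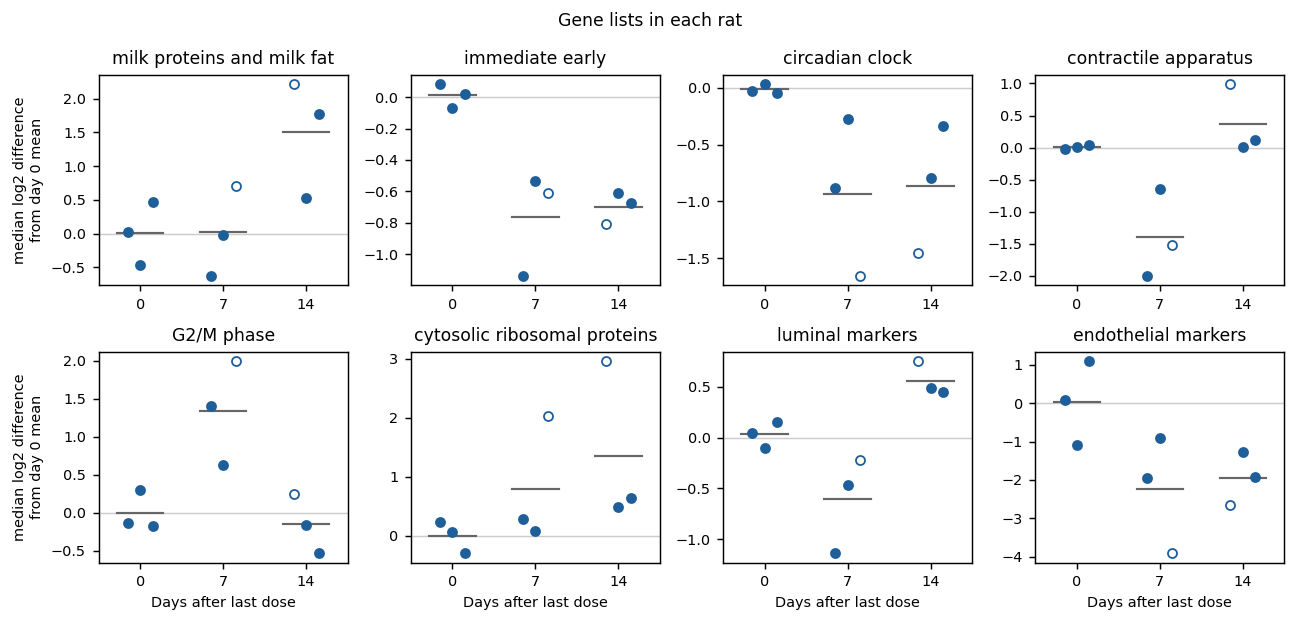
Each point is the median, over the genes of a list, of 1 rat's log2 difference from the day 0 mean (vertical axis, log2 units) at day 0, day 7 or day 14 (horizontal axis), for 8 lists. Open circles are the 2 libraries that stood apart. Contractile genes are lowest and G2/M genes highest at day 7, and the ribosomal panel is highest in the 2 open circles. The milk list is highest in rats 1 and 3 of day 14, while rat 2 of day 14 lies below rat 3 of day 7.

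The cell junction list (19 genes) had a median of 0.38 at day 14 over 9 libraries and 0.72 over 7. Over 9 libraries 4 were higher and 0 lower without overlap, beside 9.53% higher and 11% lower over all genes. DSG3, PKP1 and GJB2 rose over the 7 libraries, where 0.509% of all genes were called higher. DSG3, a desmosomal cadherin, was 385, 226 and 131 at day 0, then 1484, 1255 and 249 at day 7, then 229, 703 and 1034 at day 14 (in normalized counts) and rose over the 7 libraries at day 14 (log2 change 1.92, adjusted p = 0.0332) and day 7 (log2 change 2.60, adjusted p = 0.00693), with the pair that stood apart at the day 0 level. PKP1, a desmosomal plaque protein, rose at day 14 (log2 change 1.31, adjusted p = 0.0475). With 1 of the 9 libraries left out at a time its log2 change ran from 0.03 to 1.31, highest without rat 1 of day 14. In the list of TGF-beta ligands, receptors and SMADs (15 genes), SMAD3, the receptor-activated signal carrier, and LTBP2 and LTBP3, which belong to the latent TGF-beta binding protein family, rose over the 7 libraries. SMAD3 was 788, 772 and 703 at day 0, then 1063, 1824 and 373 at day 7, then 273, 1672 and 1700.0 at day 14 (log2 change 1.16, adjusted p = 0.047) and LTBP2 was 3205, 4635 and 2363 at day 0, then 5266, 7249 and 777 at day 7, then 1165, 16825 and 8401 at day 14 (log2 change 1.86, adjusted p = 0.0198). In both, rat 1 of day 14 was below day 0, and over 9 libraries the days overlapped. The list's median was -0.45 over 9 libraries, 0.29 over 7 and 0.06 by DESeq2 over 9, so its sign depended on the libraries and the tool. The TGF-beta target list (17 genes) had a median of -0.24 over 9 libraries, -0.42 over 7 and 0.12 by DESeq2 over 9, with LTBP2 as its 1 call over the 7.

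In the WNT list (27 genes) WNT10A was the 1 call over the 7 libraries at day 14, where 0.509% of all genes were called higher. The median was -0.17 over 9 libraries and 0.25 over 7. The Notch pathway list (15 genes) had medians of -0.86 and -0.71. Over 9 libraries 0 were higher and 4 lower without overlap, beside 9.53% higher and 11% lower over all genes. NOTCH3 is also in the pericyte list. Endothelial and pericyte markers had medians of -2.07 and -1.70 at day 14 over 9 libraries, and the part of these cells in the Notch values was not tested. At day 14 limma and edgeR called 0 of them in either set of libraries. DESeq2 over 9 called DLL4, a ligand, and HEY1, a target, both lower, where it called 1.21% of all genes lower. At day 7 the ligand DLL1 fell (log2 change -1.40, adjusted p = 0.0264). The BMP list (18 genes) had medians of -0.86 and -0.23 and the FGF and IGF list (17 genes) of -0.08 and 0.17, each with 0 calls by limma at day 14 and day 7 over the 7 libraries. DESeq2 over the 7 called 3 and 2 of them at day 14, where it called 6.18% of all genes. PLAT, the tissue plasminogen activator, was 3535, 3593 and 2225 at day 0, then 6615, 7119 and 5104 at day 7, then 4021, 10412 and 8614 at day 14 (in normalized counts), higher without overlap at both later days, and rose at day 14 (log2 change 1.64, adjusted p = 0.0122). It was the 1 call among 18 matrix proteases and inhibitors, whose median was -0.08 over 9 libraries and 0.23 over 7. DAG1, the laminin receptor dystroglycan, was the 1 call among 18 basement membrane genes (log2 change 0.94, adjusted p = 0.0451), and was 2335, 19546 and 18238 at day 14 against 10514, 9522 and 9478 at day 0, again with rat 1 of day 14 apart and a log2 change of -0.06 over 9 libraries. THBS2, a thrombospondin, was the 1 call among 22 interstitial matrix genes (log2 change 1.73, adjusted p = 0.0122). With 1 of the 9 libraries left out at a time its log2 change ran from 0.53 to 1.73, highest without rat 1 of day 14. The medians of those matrix lists were -0.36 and -0.25 over 9 libraries and 0.56 and 0.17 over 7.

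Genes that the study named for its secretory basal cell cluster, or for a subcluster of it, in single cell data of rat mammary gland were lower at day 7. SORBS2 and PROCR were named there for a subcluster. Over 7 genes the median was -1.77 at day 7. At day 14 it was -0.58 over 9 libraries, with 0 higher and 4 lower without overlap, beside 11% lower over all genes. Over the 7 it was -1.19, with 0 higher and 5 lower, beside 16.1% lower over all genes. The latter value was by construction the same without rat 1 of day 14 alone. SPARCL1, EPAS1, SORBS2 and PROCR fell at day 7 over the 7 libraries, where 1.7% of all genes were called lower. SORBS2, an adaptor of the actin cytoskeleton, was 1356, 1334 and 1661 at day 0, then 107.2, 281 and 48.9 at day 7, then 440.4, 298 and 842 at day 14 (in normalized counts) and fell at day 7 (log2 change -3.05, adjusted p = 0.00693). PROCR, the endothelial protein C receptor that marks a mammary stem cell population in mice, was 3258, 3132 and 4007 at day 0, then 637, 1402 and 1157 at day 7, then 2361, 2999 and 2538 at day 14 and fell at day 7 (log2 change -1.87, adjusted p = 0.00829), with day 14 between. SPARCL1, a matricellular protein, was 3021, 3178 and 6313 at day 0, then 740.2, 1282 and 367 at day 7, then 767, 842 and 1724 at day 14 (day 14 over 7 libraries by limma, log2 change -1.70, adjusted p = 0.0502). Here edgeR and DESeq2 called it lower at day 14 over the 7. The study chose these markers on single cell libraries of this series. SPARCL1, EPAS1 and PROCR are also expressed by endothelial cells, whose markers had a median of -2.07 at day 7 and -2.07 at day 14 (-1.53 over 7 libraries). SELP, P-selectin of endothelium, was 2280.0, 1003 and 5057 at day 0, then 152, 645 and 59.3 at day 7, then 226, 893 and 259 at day 14. The part of endothelial cells in these values was not tested.

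Among 24 interferon-stimulated genes the median was -0.07 over 9 libraries and -0.15 over 7. Over 9 libraries 5 were higher and 5 lower without overlap, beside 9.53% higher and 11% lower over all genes. IFIT1, an inhibitor of viral RNA translation, was 466, 306 and 738 at day 0, then 50.7, 114 and 41.6 at day 7, then 108.4, 47.1 and 78.3 at day 14 (in normalized counts) and fell (log2 change -2.94, adjusted p = 0.0145), as did IRF1. The MHC class II list (6 genes) had a median of 1.39 over 9 libraries and 1.02 over 7. Over 9 libraries 3 were higher and 0 lower without overlap, beside 9.53% higher and 11% lower over all genes. Limma and edgeR called 0 of them over the 7 libraries and DESeq2 called CD74, where it called 6.18% of all genes. CD74, the invariant chain, was 1357, 1108 and 825 at day 0, then 826, 1215 and 2525 at day 7, then 4172, 3096 and 1568 at day 14. The 10 leukocyte markers, of which CD74 is one, had a median of 1.31 over 9 libraries and 1.00 over 7. Their sum was 1144 to 1983 at day 0 and 1984 to 5433 at day 14. The part of leukocytes in the MHC values was not tested. Among 29 chemokine and acute phase genes the median was 0.54. LBP, the lipopolysaccharide-binding protein, was 1146, 725 and 1081 at day 0, then 414, 764 and 386 at day 7, then 3404, 2094 and 5412 at day 14 and rose at day 14 (log2 change 1.80, adjusted p = 0.0451), and CCL7, a monocyte chemokine, was 1347, 1239 and 1840.2 at day 0, then 179.9, 335 and 677 at day 7, then 2726, 396 and 498 at day 14 and fell over the 7 libraries (log2 change -1.71, adjusted p = 0.0217), with rat 1 of day 14 the highest of all 9. The median differences at day 14 of the remaining lists, over 9 and over 7 libraries in turn, were for heat shock (19 genes) 0.03 and 0.08, for the integrated stress response (17 genes) 0.18 and 0.12, for NRF2 targets (15 genes) 0.01 and 0.19, for cholesterol synthesis (24 genes) -0.26 and -0.20, for axon guidance (33 genes) -0.53 and 0.09 and for HOX genes (13 genes) -0.05 and -0.41. Among these lists limma called 2 genes at day 14 over the 7 libraries, where 0.688% of all genes were called lower. They were the cholesterol genes HMGCS1 and IDI1, both lower. With edgeR the heat shock gene HSPA1A, whose reads may be shared with its near-identical copy HSPA1B, and the glutathione peroxidase gene GPX2 were called higher as well. DESeq2 called these and others, and over the 7 libraries edgeR called 1.4% and DESeq2 6.18% of all genes. Over 9 libraries DESeq2 called 2 NRF2 genes, GPX2 and GSTA4, higher, where it called 0.517% of all genes higher.

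Most ribosomal protein genes were higher at day 14 without passing the test. Of 77 cytosolic ribosomal protein genes, 70 were higher and 0 lower without overlap, beside 9.53% higher over all genes, and the count was 70 over the 7 libraries too, beside 15.7% higher and 16.1% lower of all genes. The median was 1.36 over 9 libraries and 0.56 over 7, and 0 were called by limma or edgeR in either set. DESeq2 called 0 over 9 libraries and 1 over 7, beside 1.73% and 6.18% of all genes, and limma called 0 at day 7. RPL10 was 6426, 6039.7 and 4371 at day 0, then 6854, 5806 and 21529.7 at day 7, then 35808, 6465 and 8074 at day 14 (in normalized counts), where rat 1 of day 14 and rat 3 of day 7 were the highest. The respiratory chain list (51 genes) had a median of 0.94 over 9 libraries and 0.30 over 7, with 6 higher and 0 lower without overlap and 0 calls at day 14 by limma, edgeR or DESeq2 in either set. In luminal cells of the same rats the medians were -0.27 and 0.28. Because the ribosomal sums also set the pair of libraries apart, the part of library make-up in the 9-library medians cannot be told apart from the day.

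**Figure D4:**
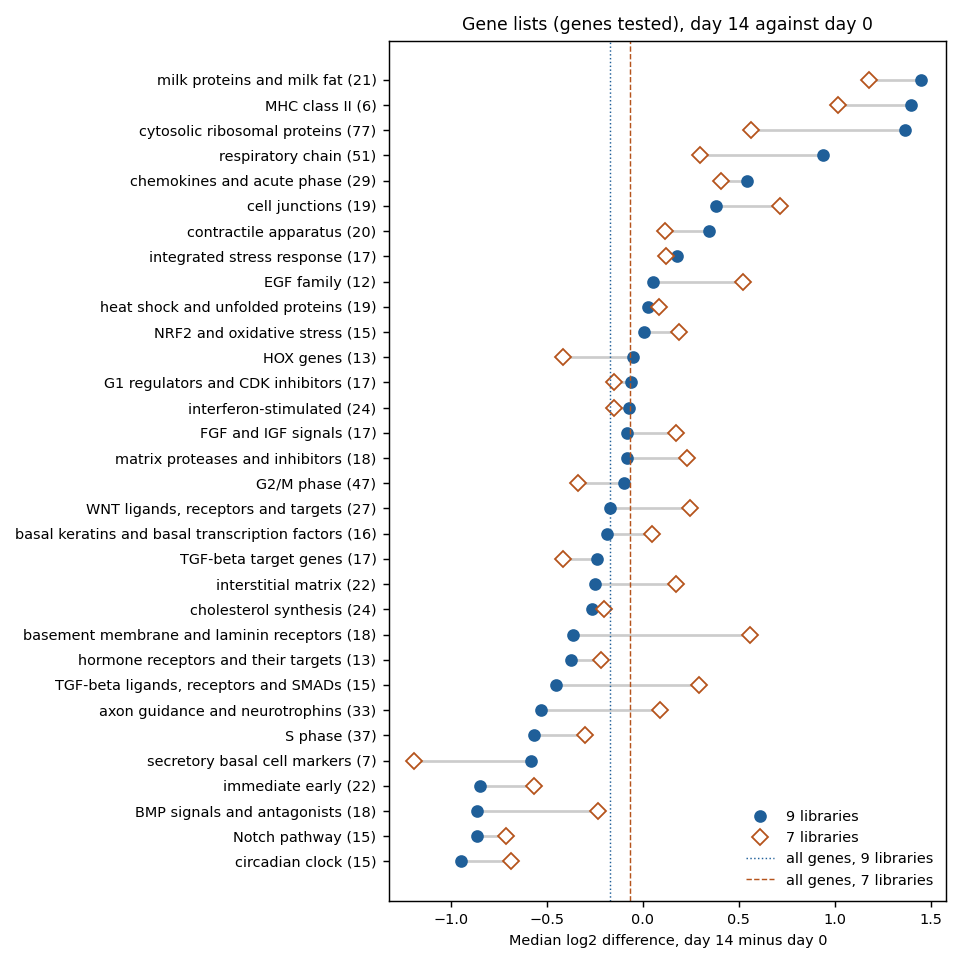
Median log2 difference of day 14 against day 0 (horizontal axis, log2 units) for 32 gene lists (vertical axis), over 9 libraries (filled circles) and over the 7 without the libraries that stood apart (open diamonds). The vertical lines give the median over all genes in each set. The milk, MHC class II and ribosomal lists lie farthest to the right over 9 libraries, and the milk, MHC class II and cell junction lists over 7, and the basement membrane, ribosomal and TGF-beta ligand lists move most between the sets of libraries.

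Between day 7 and day 14, limma called TF alone over 9 libraries, with 993 genes at an unadjusted p below 0.05. By edgeR too 1 gene was called (0.00709%), with 1245 at such a p, and by DESeq2 184 (1.3%). Over the 7 libraries limma called 24 genes (0.172%), 20 higher (0.143%) and 4 lower (0.0287%), edgeR called 26 (0.186%) and DESeq2 called 371 (2.66%). CSN3 (log2 change 4.10, adjusted p = 0.0407), LALBA (log2 change 3.14, adjusted p = 0.0169) and MYL9 were among the genes that rose in that week, and MKI67, TPX2 and HMMR made up 3 of the 4 that fell. The median of the milk list for this week was 0.89, whereas ZBTB16, PEX11A, BTG2 and EGR2 were already at their low levels at day 7.

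The change of basal cells from day 0 to day 14 was set against that of luminal cells from the same rats. By limma 0 of 14607 genes were called for a difference between the changes (0%), with an unadjusted p below 0.05 for 881, and edgeR called 0 as well, with 964. With the rat as a block, 7 were called (0.0479%). Without both cell types of the rats whose basal libraries stood apart, 5 were called (0.0345%), and 34 (0.235%) with the block. The 7 genes were 1 with a more positive change in basal cells (IL23A, a subunit of interleukin 23) and 6 with a more negative one (APOLD1, RCAN1, SCD, SELE, SLC7A7 and SSPO). SCD, the fatty acid desaturase, changed by -0.30 (log2 scale) in basal cells and by 5.24 in luminal cells (difference -5.54, adjusted p = 0.0438 with the block). RCAN1, an inhibitor of calcineurin, changed by -0.44 and 1.97 (difference -2.40, adjusted p = 0.0446 with the block). None of the 9 genes plotted by rat was called for a difference between cell types. Among the 12954 genes tested in both cell types, the luminal cells themselves had 8 called higher and 8 lower at day 14 (0.0618% each).

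In basal cells of rats given TGFBRi instead, at 75 mg/kg on the same schedule, limma called 2852 of 15432 genes for day 14 against day 0 (18.5%), 770 higher (4.99%) and 2082 lower (13.5%), against 0 in vehicle rats. By edgeR with TMM scaling 1452 were higher and 1930 lower in TGFBRi rats. The TGFBRi basal libraries of day 0 held 6562769, 4194912 and 15136358 reads and those of day 14 held 17923330 to 20644122. In TGFBRi rats the median log2 change was -0.58 over their 15432 tested genes and -0.40 over the 14109 genes of the vehicle test. In vehicle rats it was -0.17 over those 14109. The part of depth in these counts and in the medians below was not tested. For the difference between these changes 1 of 15643 genes was called (0.00639%), which was TF, while edgeR called 2 (0.0128%) and DESeq2 called 256 (1.64%). In TGFBRi rats TF was 9398, 11627 and 9042 at day 0, then 924, 1806 and 1563 at day 7, then 3484, 2106 and 1486 at day 14 (in normalized counts), a log2 change of -2.17, and the vehicle change exceeded it by 4.48 (adjusted p = 0.0117). The day 14 ranges of the treatments did not overlap, and neither did those of day 0, where TGFBRi rats were the higher ones. The medians of the milk, immediate early, clock and ribosomal lists were -0.65, -1.18, -0.78 and 2.35 in TGFBRi rats. Beside 1.45, -0.84, -0.95 and 1.36 in vehicle rats, the immediate early and clock lists were negative in both. Differences between treatments in these medians were not tested.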

How the data were processed

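Bulk RNA-seq was measured in CD24+ CD29high cells sorted from 9 vehicle ACI rats, with the luminal cells of the same rats and basal cells of 9 TGFBRi rats beside them. Per the labels and the submitters' processing notes, reads were aligned with STAR 2.5.1b to rn6, counted with HTSeq and scaled with DESeq2 1.30.1. The deposited bulk values are normalized counts (unit signal), that is counts divided by a size factor per library. Whole reads were recovered for 483768 values above 0 (100%, tolerance 0.001). In the deposited single cell tables the values are UMI counts, which the authors produced with Cell Ranger. They were summed per rat, with no test. Authors' fold changes were not used.

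Genes whose normalized counts summed to at least 10 entered limma 3.58.1 (R 4.3.3) on log2(normalized count + 1), with a trended robust prior (median prior degrees of freedom 4.57) and a mean per day. Fold changes on this scale understate changes of low genes. A gene was called at an adjusted p (Benjamini-Hochberg, over all genes tested) no larger than 0.05. DESeq2 1.42.0 and edgeR 4.0.16 (quasi-likelihood with TMM), both run on the recovered reads, pseudocounts of 0.5 and 10, other filters and scalings, a fit of 6 groups, omission of each rat and a replicate block were alternatives. The scripts were tested on simulated data. Genes were named by size of change among called genes with a mean of at least 50 normalized counts and no overlap (12 per direction) or, as none was called, the 5 per direction with the smallest unadjusted p; the same choice by size was then made over 7 libraries. Basal and luminal libraries with the same number come from the same rat, per the labels, and so are paired: their deviations from group means correlated at 0.0526 to 0.866 over 9689 genes, highest with the own rat in 8 of 9. The study's methods gave no block, so it was an alternative. Members and lists were chosen with earlier results of these data known, and other genes in the text were chosen for the lists or after their values were seen. Promoters were read from RefSeq (GRCr8). Some items that the rule would name are not reported here.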

Additional observations from a re-analysis of the deposited data

Results flagged for a closer look

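TF differed between the treatments in its change from day 0 to day 14: the vehicle change exceeded that of TGFBRi rats by 4.48 on the log2 scale (limma interaction, adjusted p = 0.0117). With the rat as a block, 7 genes differed between basal and luminal cells in the same change (limma interaction, adjusted p of 0.0438 to 0.0446). On the log2 scale the basal minus luminal difference was -4.32 for APOLD1, -4.33 for SELE, -4.46 for SLC7A7, -5.54 for SCD, -7.27 for SSPO, -2.40 for RCAN1 and 3.06 for IL23A. Without the block none of the 7 was called over all libraries. Without the rats whose basal libraries stood apart, and without the block, RCAN1 was called (adjusted p = 0.0452) and the other 6 had adjusted p of 0.0502 to 0.359. SSPO was near 0 in basal cells, at 3.26 to 12.9 normalized counts at day 0 and 0 to 1.15 at day 14, so its difference depends on the pseudocount. SELE is an endothelial selectin and a member of the endothelial marker list above. No gene was examined for a single distant library, since the groups hold 3 rats each.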

How the results depend on the processing

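The counts of called genes depended on the tool and on the pair of libraries that stood apart. For day 14 against day 0 they were 0 by limma, 244 by DESeq2, 2 with a pseudocount of 10 and 6 when all 6 basal groups shared a fit, and 167, 195 and 862 by limma, edgeR and DESeq2 without the pair. For day 7 against day 0 they were 0, 473, 2 and 30, and without the pair 309, 261 and 1001. For day 14 against day 7 they were 1 by limma, 184 by DESeq2, 0 without a variance trend and robust weights and 6 over all 6 groups, and without the pair 24, 26 and 371. For any difference among the days they were 0, 4 with a pseudocount of 10 and 343 without the pair. The vehicle and TGFBRi changes differed for 1 gene, 2 by edgeR and 256 by DESeq2, and the TGFBRi change itself for 2852 by limma and 5178 by DESeq2.

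The basal and luminal changes differed for 0 genes, for 7 with the replicate block that pairs cells of a rat, for 5 without the pair of rats and for 34 without them and with the block. Omitting 1 library at a time gave 0 to 0 calls for day 14 against day 0, 0 to 10 for day 7 against day 0 (10 without rat 2 of day 7, 3 without rat 1 of day 14), 0 to 1 for day 14 against day 7 (0 without rat 2 of day 0, rat 1 or 3 of day 7, or rat 2 or 3 of day 14), 0 to 2 for any difference (2 without rat 2 of day 7) and 0 to 3 for basal against luminal cells (3 without rat 3 of day 7). The cause was not tested.

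In 1935 alternatives for the log2 change of 88 genes at day 14, 1701 kept the direction and the side of the threshold, 210 passed the threshold and 24 turned the sign. None of these genes was called in the main fit, so in those 1701 the gene stayed uncalled. DAG1 (-0.06 over 9 libraries) was 0.44 by edgeR and 0.47 by DESeq2, and without the pair 0.94, 0.98 and 0.94 by limma, edgeR and DESeq2. SCD (-0.30) was 0.0753 and 0.11, and without the pair 0.53, 0.59 and 0.55. PGR (-0.37) was 0.16, 0.19 and 0.15 without the pair. Leaving out 1 library, the change ranged from -0.59 to 0.94 for DAG1, -0.93 to 0.53 for SCD and -0.67 to 0.16 for PGR, each positive without rat 1 of day 14, from -0.55 to 0.0635 for IL23A, and, each lowest without rat 2 or 3 of day 14, from -0.0659 to 1.86 for LTBP2, -0.25 to 0.94 for LTBP3 and -0.16 to 1.16 for SMAD3. Of 704 alternatives for the 32 list medians, 644 kept the sign. Turning signs were those of the basement membrane, interstitial matrix, TGF-beta, WNT, axon guidance, basal keratin, protease, EGF, FGF and IGF, G1, G2/M, HOX, NRF2, heat shock and interferon lists. Omitting 1 library, the milk median ranged from 1.17 to 1.95, the immediate early from -0.91 to -0.57, the clock from -1.25 to -0.69 and the ribosomal from 0.56 to 1.79. With 3 rats per day, small changes could not be told from the spread between rats.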
